A study of Mus musculus with 11 samples.

Results

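DNA replication and entry into S phase were followed in the liver through 39 genes, chosen by name from the 46603 rows of the count table: 10 that license origins, 4 that activate the helicase, 7 of primase and the polymerases, 8 of the clamp, its loader and strand maturation, 4 of nucleotide supply and 6 of G1/S control and methylation upkeep. All 39 had a row. The livers came from male leptin-deficient *ob/ob* mice with diet-induced MASH (AMLN *ob/ob*-MASH), fed the AMLN diet, which is high in fat, fructose and cholesterol, from an age of 5 to 6 weeks, for 15 weeks before treatment and throughout it, and selected on a liver biopsy. Mice were given INT-767, an agonist of the bile acid receptors FXR and TGR5, at 10 mg/kg by mouth once daily for 8 weeks (n = 4), or the carboxymethyl cellulose vehicle alone (n = 7). Leptin deficiency and the diet were common to both groups, no lean or chow-fed liver was analysed here, and each library was poly(A) RNA from 1 mouse. Total counts were 7966963 to 15295230 in vehicle and 7381211 to 16022459 in INT-767 livers.

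A cell copies its genome once per cycle. In G1 the origin recognition complex, CDC6 and CDT1 load the ring-shaped MCM helicase, made of the subunits MCM2 to MCM7, onto origins. At the G1/S transition E2F transcription factors switch on many of these genes, and kinases recruit CDC45 and the GINS complex to the helicase. Primase and the polymerases then copy the strands, the PCNA clamp holds the polymerases to DNA, and flap removal and ligation join the pieces. Most hepatocytes of an adult liver are quiescent, and the cells that enter the cycle in an injured liver may be of any type, so RNA from whole tissue does not say which cells these were.

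The livers of each group spread along 1 main axis. Over the 13880 tested genes, the main axis of the spread between livers of 1 group (first principal component of log2 CPM minus the group mean) held 58.8% of that spread. Vehicle mice 1 and 7 (scores 0.517 and 0.343) and INT-767 mice 2 and 4 (0.181 and 0.436) lay on one side of it, vehicle mouse 2 near 0 (0.0089) and the other 6 livers on the other side (-0.365 to -0.173). Scores are centred in each group, so each group has livers on either side. INT-767 mice 1 and 3 (-0.365 and -0.252) lay farther from 0 than mouse 2. The 4 libraries with a score above 0.1, a cut chosen after the data were seen, are called here the libraries that stood apart. This name does not say which livers were typical. Across genes, which are not replicates, the weight on this axis had a Spearman correlation of -0.33 with GC content and -0.31 with transcript length, both in the sense that the 4 libraries held more of the short and GC-poor genes. The cause of this axis was not tested, and the results that follow are given on all 11 livers. For the 39 genes, changed calls are also given without the 4, on 5 vehicle and 2 INT-767 livers. The other gene lists and the cell type markers were not refitted without the 4.

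Most of the replication genes that fell in INT-767-treated livers belong to origin licensing. Of 37 tested genes, 9 fell in INT-767 livers (24.3% of those tested), where 4.68% of all 13880 tested genes fell, and 0 rose, where 5.04% of all tested genes rose (edgeR quasi-likelihood test, adjusted p under 0.05). DESeq2 and limma-voom also called 0 members higher. At an unadjusted p under 0.05 in edgeR stood 18 of the 37 members, all with a negative fold change, beside 32.9% of all tested genes (2159 lower and 2414 higher). The 9 were *Cdt1*, *Mcm2*, *Mcm3*, *Mcm4*, *Mcm5*, *Mcm6*, *Pole*, *Rpa2* and *Uhrf1*. The median log2 fold change of the tested members was -0.57, against -0.01 over all tested genes, and 28 of the 37 had a negative value. All INT-767 livers lay below all vehicle livers in 6 members (*Cdt1*, *Mcm2*, *Mcm4*, *Mcm6*, *Prim2* and *Uhrf1*), as they did in 3.65% of all tested genes. Without INT-767 mouse 2, 3 of the 9 were still called (*Cdt1*, *Mcm2* and *Uhrf1*), where 0.767% of all tested genes fell. Without vehicle mouse 6, 5 of the 9 were called, where 1.96% of all tested genes fell. Without the 4 libraries that stood apart, 5 of 37 members fell (4 of the 9, *Cdt1*, *Mcm2*, *Mcm6* and *Uhrf1*, and *Ccne1*), where 6.12% of all tested genes fell. There 1 of 37 members rose (*Ccnd1*), where 856 of all 14363 tested genes rose, and the median of the members was -0.49. In that fit *Mcm3*, *Mcm4*, *Mcm5*, *Pole* and *Rpa2* kept a negative fold change and were not called (edgeR adjusted p = 0.0534, 0.113, 0.0555, 0.0854 and 0.162). Of all called genes 51.9% were higher, and 24.4% with library size as the only scaling, 36.5% with upper-quartile factors. With these scalings the members called lower numbered 12 and 10, where 7.39% and 5.85% of all tested genes fell. In bulk liver, fewer cells of a type and less RNA per cell cannot be told apart.

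By step, 6 of 9 tested licensing genes fell (median log2 fold change -1.20), where 4.68% of all tested genes fell. Of helicase activation genes 0 of 4 fell (-0.68), of primase and polymerase genes 1 of 7 (-0.44). Of clamp and maturation genes 1 of 7 fell (0.04), of nucleotide supply genes 0 of 4 (-0.26) and of G1/S and methylation genes 1 of 6 (-0.38). A count of 0 or 1 in so few genes cannot separate a step from the share of all tested genes. The licensing step holds only the origin recognition subunits *Orc1* and *Orc6*. *Orc2*, *Orc3*, *Orc4* and *Orc5*, named after their values were seen, stand among the further replication genes described last, with log2 fold changes of 0.36, 0.39, 0.89 and 0.82, none called. Each was highest within each group in the libraries that stood apart. *Orc4* was at 47.3 and 30.8 CPM in vehicle mice 1 and 7 and at 43.7 and 75.5 CPM in INT-767 mice 2 and 4. In the other livers it was at 13.7 to 26.9 CPM. The steps were not tested against one another. *Orc1* and *Fen1* had too few counts to pass the filter of the main fit and were not tested in it. Levels are given as CPM, the count divided by the TMM-scaled library total and put on the usual CPM scale. The summed level of the 39 genes was 416 ± 71.2 CPM (SD, n = 7) in vehicle and 367 ± 34.3 CPM (SD, n = 4) in INT-767 livers. The ranges of the sums overlapped. Per kilobase of the longest coding transcript, *Ccnd1* (20.96 RPKM) and *Pcna* (19.2 RPKM) had the highest mean levels of the members in vehicle livers, and neither was called.

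**Figure D1:**
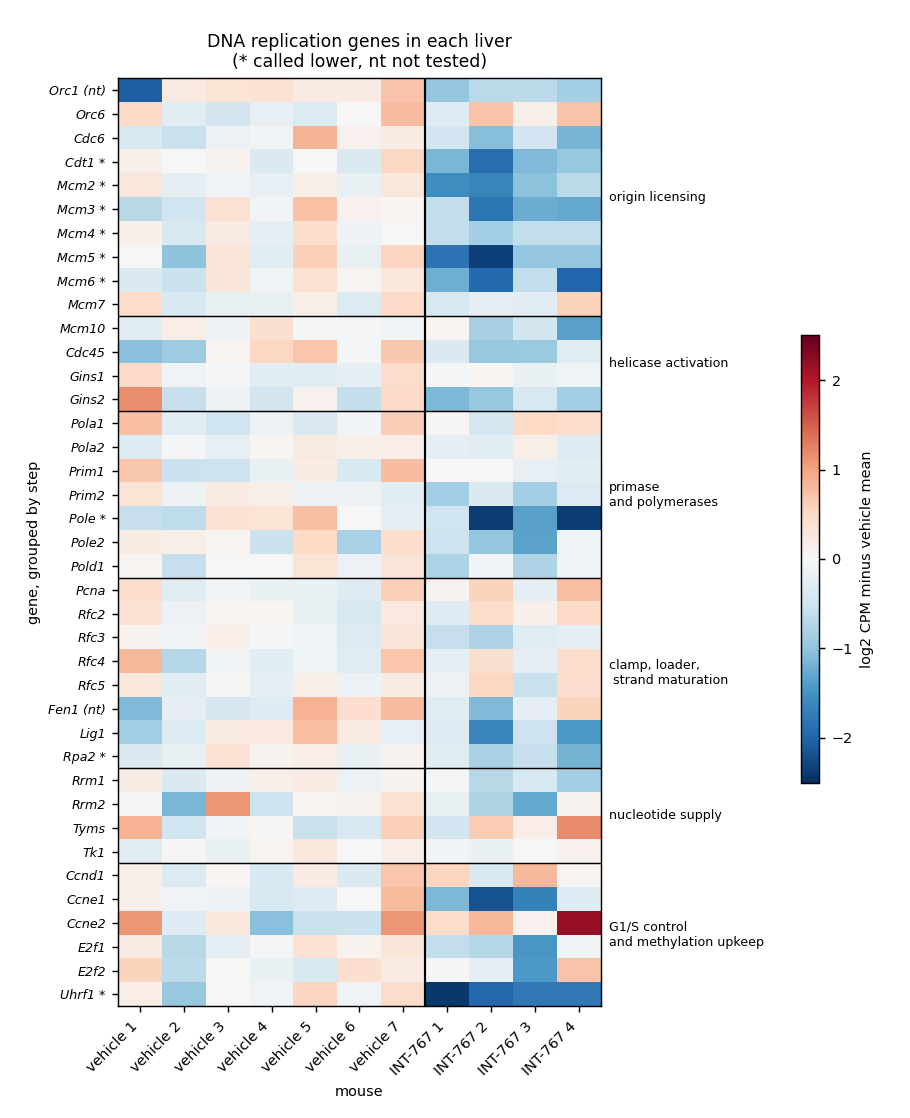
Log2 CPM of each of the 39 genes in each of the 11 livers minus the vehicle mean of that gene, grouped by step, with blue below and red above the vehicle mean. The 4 INT-767 columns are blue across *Cdt1* and *Mcm2* to *Mcm6* and in *Uhrf1*, while *Mcm7*, *Pcna* and *Tk1* show no such block. The 4 also lie below the vehicle mean in *Orc1*, *Cdc6*, *Cdc45*, *Gins2*, *Prim2*, *Pole*, *Pole2*, *Pold1*, *Rfc3*, *Lig1*, *Rpa2*, *Rrm1*, *Ccne1* and *E2f1*. Asterisks mark the 9 genes called lower.

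Individual livers differed in level. Among the vehicle livers, mouse 5 held the highest value in 15 members, mouse 1 in 10 and mouse 7 in 9, and mouse 2 the lowest in 16. Among the INT-767 livers, mouse 4 held the highest value in 18 members and mouse 2 the lowest in 12. The summed level was lowest in INT-767 mouse 2 (322 CPM) and vehicle mouse 2 (323 CPM) and highest in vehicle mouse 7 (534 CPM). Members were near the typical tested gene in base composition and length, with a median GC content of 49.3% and a median longest transcript of 3205 bases, against 49.4% and 3310 bases.

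Several members carry E2F letters near their transcription start, and they are shown here since E2F factors are known to drive these genes at G1/S. RefSeq promoters (GRCm38.p6, 250 bases before to 50 after the start) were found for 31 members. *Gins1*, *Ccne2*, *Rfc2*, *Ccnd1*, *Pole*, *Mcm4*, *Gins2* and *Prim2* are named only. A full site was TTTCGCGC, TTTGGCGC, TTTCCCGC or TTTGCCGC and a core GGCGGGAA, GCGCGAAA or GGCGCGAA, read on both strands, and 1 stretch can match several of these. A site or core was present in 18 of the 31 genes (58.1%), in 4.87% of all 27025 genes in the table and in 8.58% of the 10208 genes of the table that were tested in the liver. Windows before the start are given for 3 genes that fell (*Mcm5*, *Mcm6* and *Uhrf1*, the last with 2 promoters), 2 that were not called (*Mcm7* and *Pola1*) and 1 not tested (*Orc1*), each 5′ to 3′ on the gene's strand with matched letters in capitals:
*Mcm5* (chr8:75109349-75109378, plus strand): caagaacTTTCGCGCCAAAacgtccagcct
*Mcm6* (chr1:128359731-128359760, minus strand): tggacgggTTTGGCGCGAAgtagctcagct
*Uhrf1*, first promoter (chr17:56303278-56303307, plus strand): tgctttctcgcTTCCCGCCacagcgccagc
*Uhrf1*, second promoter (chr17:56304117-56304146, plus strand): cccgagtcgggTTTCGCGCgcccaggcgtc
*Mcm7* (chr5:138172030-138172059, minus strand): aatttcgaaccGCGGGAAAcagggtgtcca
*Pola1* (chrX:93632275-93632304, minus strand): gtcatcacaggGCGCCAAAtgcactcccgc
*Orc1* (chr4:108579416-108579445, plus strand): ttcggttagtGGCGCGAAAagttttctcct

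The letters were found in genes that fell and in genes that were not called. A site or core stood in the promoters of 5 of the 7 called genes with a promoter record (*Cdt1*, *Mcm3*, *Mcm5*, *Mcm6* and *Uhrf1*), in 11 of 22 tested members that were not called and in both members that were not tested. *Mcm7* held the letters on either side of its start and was not called. In 11 of the 18 genes at least 1 match lay before the start. The CCAAT box, read as CCAAT on both strands, was present in 18 of 31 member genes (58.1%), in 41.1% of all genes in the table and in 42.7% of those tested in the liver. The cell cycle homology element, TTTGAA or TTCGAA on both strands, was present in 19.4% of member genes, between the 21.7% of all genes in the table and the 16.6% of those tested in the liver. A match describes letters, not bound protein, and these data hold no binding measurement.

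**Figure D2:**
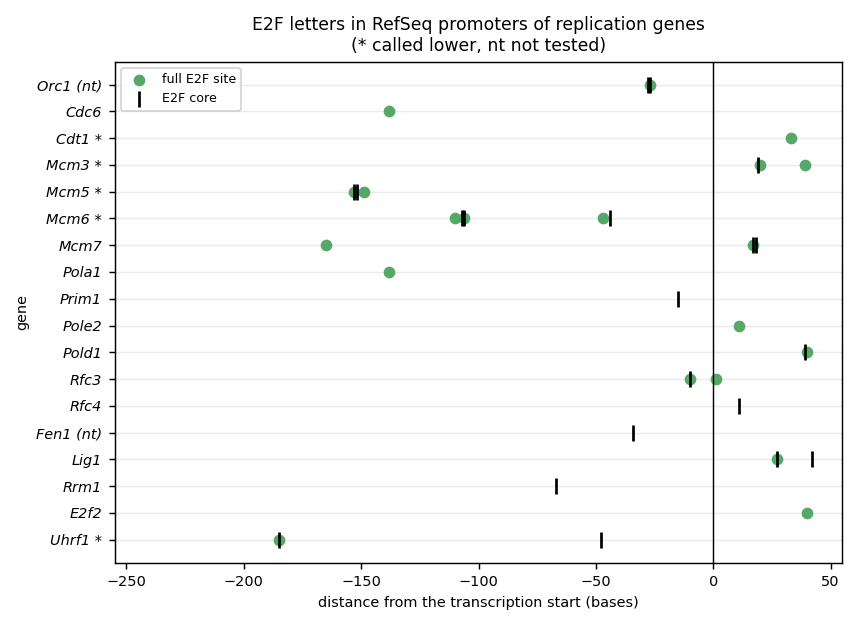
Position of E2F letters in the RefSeq promoters of the 18 members that hold them, in bases from the transcription start (vertical line), with green circles for full sites and black ticks for cores. Genes called lower (asterisks) and genes not called both hold letters before and after the start.

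Origin licensing held 6 of the 9 genes that fell. *Cdt1* delivers the helicase ring to origins. Its level was 4.37 to 8.12 CPM (median 5.64) in the 7 vehicle livers and 2.48, 1.38, 2.53 and 2.85 CPM in INT-767 mice 1 to 4. Every treated liver lay below every vehicle liver, and *Cdt1* fell by 59.4% (log2 fold change -1.30 ± 0.25 SE, edgeR adjusted p = 0.00912). *Mcm2*, a ring subunit, was at 10.3 to 14.7 CPM (median 11.2) in vehicle livers and at 4.003, 3.73, 5.77 and 7.49 CPM in INT-767 livers. The groups did not overlap, with a fall of 56.6% (log2 fold change -1.20 ± 0.22, edgeR adjusted p = 0.00831). *Cdt1* and *Mcm2* were called with any 1 liver left out.

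The other ring subunits that fell were *Mcm3* (log2 fold change -1.26 ± 0.31, edgeR adjusted p = 0.0272), *Mcm4* (-0.70 ± 0.18, 0.0338), *Mcm5* (-1.55 ± 0.36, 0.02302) and *Mcm6* (-1.40 ± 0.29, 0.0143). *Mcm6* was at 12.8 to 24.4 CPM (median 19.6) in vehicle livers and at 4.57 to 12.1 CPM in INT-767 livers, and *Mcm4* at 7.26 to 13.01 CPM (median 9.52) and 5.25 to 6.23 CPM, without overlap, whereas in *Mcm3* and *Mcm5* the groups overlapped. In INT-767 mouse 1 *Mcm3* reached 6.23 CPM, above vehicle mouse 1 at 5.83 CPM. *Mcm5* in the lowest vehicle liver, mouse 2, was 4.11 CPM, under the 4.22 and 4.197 CPM of INT-767 mice 3 and 4. In the 11 fits that left out 1 liver, *Mcm5* and *Mcm6* were called in 10, *Mcm3* in 8 and *Mcm4* in 5. Under 12 other settings *Mcm6* was called in 10, *Mcm3* and *Mcm5* in 9 and *Mcm4* in 7. These settings include the fit without the 4 libraries that stood apart and the fits with a replicate block, which called 0 genes of all tested. *Mcm4* was not called in any of those, without a filter (edgeR adjusted p = 0.0742) or with sample weights (limma-voom adjusted p = 0.0601).

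*Mcm7*, the remaining subunit of the ring, was not called. It measured 17.7 ± 4.599 CPM in vehicle and 16.9 ± 5.97 CPM in INT-767 livers (SD, n = 7 and n = 4), with a log2 fold change of -0.06 ± 0.24 and a 95% interval of -0.58 to 0.46 (edgeR adjusted p = 0.865). INT-767 mouse 4 alone reached 25.8 CPM, and the other 3 treated livers were at 12.9 to 14.5 CPM. Per kilobase of the longest coding transcript, mean levels in vehicle livers were 3.604, 3.32, 2.71, 2.64, 4.39 and 5.97 RPKM for *Mcm2* to *Mcm7* in order. In INT-767 livers they were 1.56, 1.37, 1.66, 0.899, 1.68 and 5.701 RPKM. The ratio of *Mcm7* to the mean of *Mcm2* to *Mcm6* was 1.35 to 2.65 in vehicle livers (median 1.78) and 2.93, 4.93, 2.76 and 5.80 in the INT-767 livers, without overlap. This ratio was formed after the values were seen, and it was not tested. INT-767 mice 2 and 4, with the highest ratios, had the lowest levels of *Mcm6*. They and vehicle mice 1 and 7, which had the highest vehicle ratios (2.65 and 2.13), are the 4 libraries that stood apart over all genes. In the other livers the ratio was 1.35 to 1.95 in 5 vehicle mice and 2.93 and 2.76 in INT-767 mice 1 and 3. The same 4 libraries were highest in *Rpa3*, the small subunit of the complex that coats single-stranded DNA, with 19.7 and 13.5 CPM in vehicle mice 1 and 7 and 13.54 and 31.7 CPM in INT-767 mice 2 and 4, against 4.14 to 10.8 CPM in the others (*Rpa3* was named after its values were seen). The part of this pattern in the ratio was not tested. *Mcm7* shares 9.49% of its 75-base windows with other genes, chiefly *Gm5487*, and 8.699% of its exonic bases overlap an exon on the opposite strand, so its count is less certain than those of the other subunits.

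**Figure D3:**
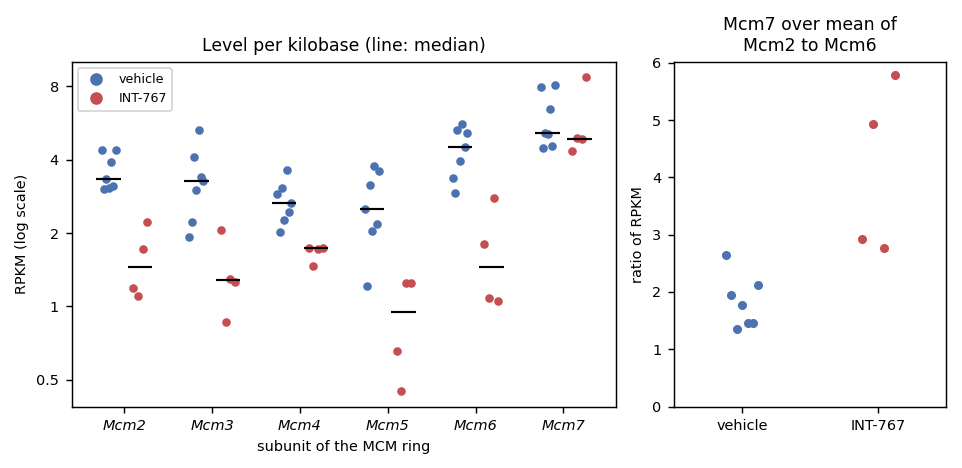
Left, RPKM on a log scale of the MCM subunits in 7 vehicle (blue) and 4 INT-767 (red) livers, with a line at each median; right, the ratio of *Mcm7* to the mean of *Mcm2* to *Mcm6* in each liver. *Mcm2*, *Mcm4* and *Mcm6* separate the groups, *Mcm7* does not, and the ratio runs from 1.35 to 2.65 in vehicle and from 2.76 to 5.80 in INT-767 livers.

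Of the remaining licensing genes, *Cdc6*, which helps load the ring, had a log2 fold change of -1.02 ± 0.38 and was not called (edgeR adjusted p = 0.0971). *Orc6*, an origin recognition subunit, measured 4.37 to 10.4 CPM (median 5.24) in vehicle livers and 4.83, 10.1, 6.76 and 10.04 CPM in INT-767 livers. The groups overlapped, and the log2 fold change was 0.30 ± 0.29 (edgeR adjusted p = 0.455). Leaving out 1 liver gave 0.15 (without INT-767 mouse 4) to 0.49 (without INT-767 mouse 1). *Orc1*, the origin recognition subunit that joins in G1, was listed at 0 to 0.993 CPM (median 0.6598) in vehicle livers and at 0.191, 0.276, 0.282 and 0.225 CPM in INT-767 livers. Vehicle mouse 1 had 0 counts, which allows up to 0.380 CPM, and the other 6 vehicle livers were above all 4 treated livers, on 66 counts in all.

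On all 11 livers no helicase activation gene was called by edgeR, DESeq2 or limma-voom, and 2 of the 4 had an unadjusted p under 0.05 in edgeR, where 32.9% of all tested genes had one. *Gins2*, a subunit of the GINS complex, was at 1.46 to 5.33 CPM (median 2.08) in vehicle and at 0.953, 1.11, 1.69 and 1.199 CPM in INT-767 livers. The ranges met only at 1.69 CPM in INT-767 mouse 3, and the log2 fold change was -1.04 ± 0.40 (edgeR adjusted p = 0.102). An exon on the other strand overlaps 67.3% of its exonic bases, and the strand setting of the counting is not given in the sources used here. Smaller overlaps of this kind stood in *Ccnd1* (23.4%), *Ccne2* (17.4%), *Rfc2* (15.1%), *Rfc4* (12.7%), *Orc1* (10.8%) and *Rfc5* (10.7%), among others. *Mcm10*, which helps start the loaded helicase, was at 17.6 to 28.6 CPM (median 21.01) in vehicle livers and at 22.2, 12.02, 15.8 and 8.32 CPM in INT-767 livers. INT-767 mouse 1 lay within the vehicle range and the other 3 below it (log2 fold change -0.58 ± 0.24, edgeR adjusted p = 0.117). Without INT-767 mouse 1 *Mcm10* was called lower (log2 fold change -0.86, edgeR adjusted p = 0.0328). *Cdc45*, the helicase cofactor, and *Gins1* had log2 fold changes of -0.79 ± 0.41 and -0.10 ± 0.21.

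Among primase and polymerase genes the main edgeR fit called *Pole* alone. *Pole*, the catalytic subunit of the leading strand polymerase, was at 3.15 to 8.51 CPM (median 4.95) in vehicle livers and at 3.49, 0.829, 1.83 and 0.824 CPM in INT-767 livers. INT-767 mouse 1 overlapped the 2 lowest vehicle livers and the other 3 did not (log2 fold change -1.54 ± 0.43, edgeR adjusted p = 0.0414). The call held in 4 of 11 fits that left out 1 liver and under 8 of 11 other settings. *Prim2*, the large primase subunit, was at 3.21 to 5.07 CPM (median 3.59) in vehicle livers and at 2.097, 3.04, 2.11 and 3.07 CPM in INT-767 livers. The groups did not overlap, but the log2 fold change of -0.62 ± 0.21 did not pass the test (edgeR adjusted p = 0.0772). *Prim2* was called lower with library size as the only scaling, with the stricter filter, with limma-voom sample weights and with the GC content and length offset (adjusted p = 0.0247, 0.04095, 0.0435 and 0.0150).

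*Pola1*, the catalytic subunit of the polymerase that extends primers, measured 5.72 to 13.7 CPM (median 7.36) in vehicle and 8.26, 5.94, 11.5 and 11.02 CPM in INT-767 livers. The groups overlapped (log2 fold change 0.11 ± 0.28, 95% interval -0.50 to 0.72), a value that turned negative with library size as the only scaling. Its partner *Pola2* had a log2 fold change of -0.18 ± 0.17, the primase catalytic subunit *Prim1* -0.22 ± 0.29, the leading strand subunit *Pole2* -0.82 ± 0.40 and the lagging strand polymerase *Pold1* -0.44 ± 0.23, none of them called.

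The clamp step held 1 called gene. *Rpa2*, a subunit of the complex that coats single-stranded DNA, was at 6.47 to 10.8 CPM (median 8.86) in vehicle livers and at 6.74, 4.699, 5.49 and 3.597 CPM in INT-767 livers. The ranges met only at 6.74 CPM in INT-767 mouse 1. *Rpa2* fell by 39.02% (log2 fold change -0.71 ± 0.21, edgeR adjusted p = 0.0486). The call held in 2 of 11 fits that left out 1 liver and under 6 of 12 other settings. *Lig1*, the ligase that seals lagging strand pieces, was at 5.07 to 15.8 CPM (median 10.8) in vehicle livers and at 7.43, 2.902, 6.48 and 3.37 CPM in INT-767 livers, with overlap and a log2 fold change of -0.96 ± 0.33 (edgeR adjusted p = 0.07896). DESeq2 and limma-voom with sample weights called *Lig1* lower (adjusted p = 0.0356 and 0.0482), as did edgeR without vehicle mouse 1 (0.0311) and without INT-767 mouse 1 (0.0478).

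*Pcna*, the clamp, was not called. It measured 22.6 to 42.8 CPM (median 25.2) in vehicle and 29.99, 41.7, 23.7 and 47.4 CPM in INT-767 livers. The groups overlapped (log2 fold change 0.30 ± 0.24, 95% interval -0.22 to 0.81, edgeR adjusted p = 0.379), and the log2 fold change was 0.12 without INT-767 mouse 4 and 0.041 with a GC content and length offset. In RPKM the ratio of *Pcna* to the mean of *Mcm2* to *Mcm6*, also formed after the values were seen, was 3.73 to 8.52 in vehicle and 8.88 to 27.7 in INT-767 livers, without overlap. It too was highest in its group in the 4 libraries that stood apart (8.52 and 7.395 in vehicle mice 1 and 7, 27.7 and 20.8 in INT-767 mice 2 and 4), and was 3.73 to 6.55 in the other vehicle livers and 13.3 and 8.88 in INT-767 mice 1 and 3. *Pcna-ps2*, a pseudogene, shares windows with *Pcna*, for which 13.8% of 75-base windows are not unique.

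The clamp loader opens PCNA and closes it on DNA, and the main edgeR fit called none of the 4 subunits among the members. A further subunit, *Rfc1*, stands among the further replication genes and was named after its values were seen. It was not called either (log2 fold change 0.22, edgeR adjusted p = 0.255). *Rfc2* was at 22.2 to 38.04 CPM (median 30.4) in vehicle and at 23.4, 40.6, 32.1 and 41.4 CPM in INT-767 livers. *Rfc4* was at 2.27 to 6.85 CPM (median 3.56) in the vehicle group and 3.24, 5.11, 3.24 and 5.32 CPM in the treated group. *Rfc5* was at 8.06 to 12.05 CPM (median 9.98) in vehicle and 8.83, 14.1, 6.62 and 13.3 CPM in INT-767 livers. All 3 overlapped between groups, with log2 fold changes of 0.20 ± 0.19, 0.04 ± 0.32 and 0.11 ± 0.21, none called, and with library size as the only scaling all 3 values turned negative (*Rfc4* also with upper-quartile factors). *Rfc3* had a log2 fold change of -0.48 ± 0.18 (edgeR adjusted p = 0.0991), and was called lower with library size as the only scaling and with the GC content and length offset (adjusted p = 0.0447 and 0.0246). *Fen1*, the flap nuclease of lagging strand maturation, was too low for the filter of the main fit. It was at 0 to 0.509 CPM (median 0.147) in vehicle and 0.127, 0, 0.141 and 0.375 CPM in INT-767 livers. It had 0 counts in vehicle mouse 1, which allows up to 0.380 CPM, and in INT-767 mouse 2, which allows up to 0.415 CPM, and 84.2% of its exonic bases overlap an exon on the opposite strand.

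On all 11 livers none of the 4 nucleotide supply genes was called by edgeR, DESeq2 or limma-voom, and 1 of the 4 had an unadjusted p under 0.05 in edgeR, again beside 32.9% of all tested genes. *Rrm1*, the large subunit of ribonucleotide reductase, was at 14.1 to 21.01 CPM (median 19.3) in vehicle livers and at 17.4, 11.2, 13.9 and 9.82 CPM in INT-767 livers. Mice 2, 3 and 4 of the treated group lay below the vehicle range and mouse 1 within it (log2 fold change -0.48 ± 0.18, edgeR adjusted p = 0.101), and without INT-767 mouse 1 *Rrm1* was called lower (log2 fold change -0.65, edgeR adjusted p = 0.0421). *Rrm2*, the small subunit, was at 5.57 to 27.2 CPM (median 13.1) in vehicle livers and at 10.9, 7.32, 5.07 and 13.3 CPM in INT-767 livers. The groups overlapped widely, with vehicle mouse 3 highest (log2 fold change -0.57 ± 0.38). Leaving out 1 liver gave log2 fold changes of -0.82 (without INT-767 mouse 4) to -0.33 (without vehicle mouse 3). *Tyms*, thymidylate synthase, was at 6.397 to 17.5 CPM (median 9.05) and 6.74, 14.8, 10.6 and 21.7 CPM, with INT-767 mouse 4 the highest of all 11 livers (log2 fold change 0.42 ± 0.35, edgeR adjusted p = 0.394, and 0.065 as the log2 fold change without that mouse). *Tk1*, the thymidine salvage kinase, had the narrowest interval of the step, -0.35 to 0.26 around a log2 fold change of -0.04.

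The largest fall of the 37 was in *Uhrf1*. UHRF1 brings the maintenance methyltransferase DNMT1 to newly copied DNA. *Uhrf1* (chr17:56303321-56323486, GRCm38) measured 2.42 to 7.05 CPM (median 4.78) in vehicle livers and 0.762, 1.11, 1.27 and 1.27 CPM in INT-767 livers. The highest treated liver lay below the lowest vehicle liver, mouse 2. *Uhrf1* fell by 78.4% (log2 fold change -2.21 ± 0.32, 95% interval -2.90 to -1.52, edgeR adjusted p = 0.00329), and was called with any 1 liver left out. The gene *Gm5648* shares 9.05% of its 75-base windows.

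The E-type cyclins, which switch on CDK2, had fold changes of opposite sign. *Ccne1* was at 2.37 to 5.55 CPM (median 2.93) in vehicle livers and at 1.33, 0.553, 0.845 and 2.47 CPM in INT-767 livers. Only INT-767 mouse 4, at 2.47 CPM, overlapped the vehicle range, and the log2 fold change of -1.25 ± 0.38 fell short of the threshold (edgeR adjusted p = 0.0538). *Ccne2* was at 1.497 to 7.23 CPM (median 2.57) in vehicle and at 4.57, 5.94, 3.52 and 15.4 CPM in INT-767 livers, with the highest value of all in INT-767 mouse 4 (log2 fold change 0.96 ± 0.49, 95% interval -0.10 to 2.01). Without that mouse the log2 fold change of *Ccne2* was 0.28, and with a GC content and length offset 0.33. The groups overlapped, and the main edgeR fit, on all 11 livers, called neither cyclin. *Ccne1* was called lower by edgeR with library size only (adjusted p = 0.03499), with upper-quartile factors (0.0449) and with the GC content and length offset (0.04095), by limma-voom when samples were weighted (0.0204) and by DESeq2 (0.0157). In edgeR it was also called lower without vehicle mouse 1 (0.0434), without INT-767 mouse 4 (log2 fold change -1.76, 0.0204) and without the 4 libraries that stood apart (-1.26, 0.0385). *Ccne2* was not called in any of these. The difference between the cyclins was not tested.

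*Ccnd1*, cyclin D1, which acts earlier in G1, was at 58.02 to 123 CPM (median 78.7) in vehicle and at 109.9, 58.3, 133 and 79.2 CPM in INT-767 livers. The groups overlapped, with INT-767 mouse 3 highest of all (log2 fold change 0.28 ± 0.25, edgeR adjusted p = 0.4398). Leaving out 1 liver gave log2 fold changes of 0.082 (without INT-767 mouse 3) to 0.44 (without INT-767 mouse 2). Without the 4 libraries that stood apart *Ccnd1* was called higher (log2 fold change 0.83, edgeR adjusted p = 0.0138), where the 2 treated livers left were those with its highest levels. The activator *E2f1* had a log2 fold change of -0.68 ± 0.28 (edgeR adjusted p = 0.115) and *E2f2* one of -0.08 ± 0.36 (edgeR adjusted p = 0.887).

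**Figure D4:**
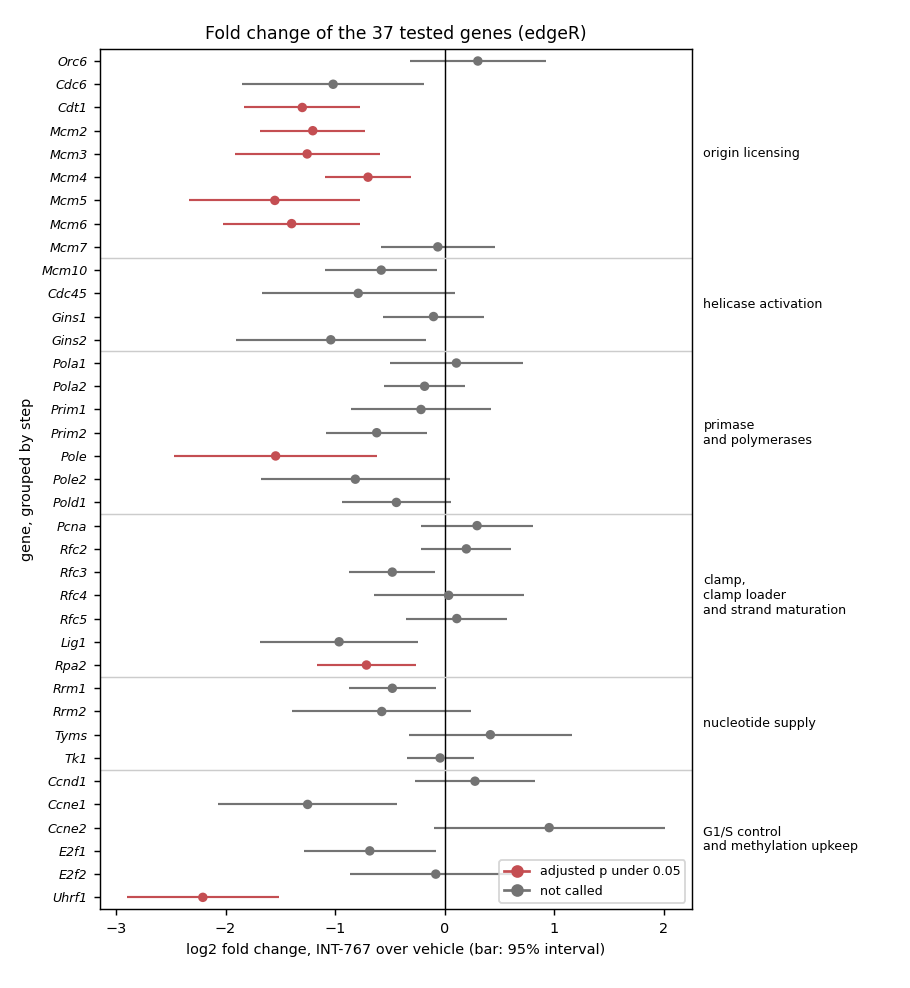
Log2 fold change of INT-767 over vehicle for the 37 tested genes (points) with 95% intervals (bars), grouped by step, red where the edgeR adjusted p was under 0.05. The red genes lie at -0.70 or lower, with *Uhrf1* at -2.21, and the 9 genes right of 0 all have intervals that include 0.

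**Figure D5:**
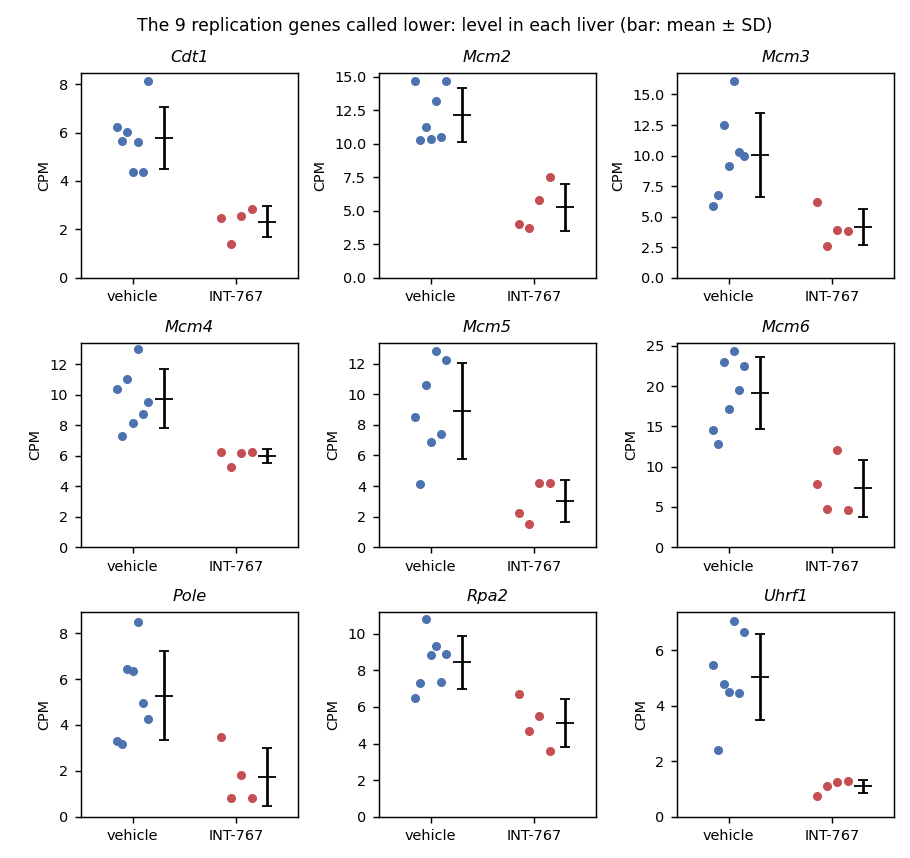
CPM of the 9 genes called lower in each of 7 vehicle (blue) and 4 INT-767 (red) livers, with the mean ± SD beside them. The groups do not overlap in *Cdt1*, *Mcm2*, *Mcm4*, *Mcm6* and *Uhrf1*, and overlap in *Mcm3*, *Mcm5*, *Pole* and *Rpa2*.

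Replication genes outside the 39 were read from a second list. Of 45 further genes of origin firing, elongation and chromatin assembly, 43 were tested, 1 fell (2.33%, beside 4.68% of all tested genes) and 0 rose, with a median log2 fold change of 0.05. The gene that fell was *Chaf1b*, a subunit of the histone chaperone CAF-1 (log2 fold change -1.19, edgeR adjusted p = 0.0341). Their summed level was 666 ± 73.8 CPM in vehicle and 804 ± 113 CPM in INT-767 livers, where the most abundant, the folate enzyme *Shmt1*, was at 116 ± 18.9 and 143 ± 43.4 CPM. Within each group the sum was highest in the libraries that stood apart. It was 797 and 744 CPM in vehicle mice 1 and 7 and 605 to 642 CPM in the other vehicle livers. In INT-767 mice 2 and 4 it was 842 and 948 CPM, and in mice 1 and 3 713 and 714 CPM. Of 27 other G1/S genes, 24 were tested and 5 fell: *Ccnd2* (log2 fold change -1.13), *Ccnd3* (-0.75), the kinases *Cdk4* (-0.46) and *Cdk6* (-0.76), and *Ccna2* (-1.37), the S phase cyclin. None of the 24 rose, and their median was -0.25.

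A list of mitosis genes, not all of which act in mitosis alone, was read the same way. Of 35, 33 were tested, 11 fell (33.3%, beside 4.68% of all tested genes), 0 rose (beside 5.04%) and the median log2 fold change was -1.26. The 6 with the smallest p were *Racgap1* (log2 fold change -2.06), *Foxm1* (-2.00), *Bub1b* (-1.69), *Mki67* (-2.01), *Aurkb* (-2.07) and *Top2a* (-1.34). *Mki67*, whose protein marks cycling cells, was 12.3 ± 3.798 CPM in vehicle and 2.996 ± 1.68 CPM in INT-767 livers. The mitosis sum was 153 ± 49.1 CPM against 86.3 ± 22.6 CPM.

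Some markers of liver cell types changed as well. Of all tested genes 4.68% fell and 5.04% rose. Of 10 hepatocyte markers 0 fell and 2 rose, with *Ass1*, an enzyme of the urea cycle, among the latter (log2 fold change 1.31). Fold changes were positive in 8 and negative in *Cyp2e1* (-1.002) and *Ttr* (-0.32), which were not called. The summed level was 66043 ± 5645 CPM in vehicle and 91276 ± 19466 CPM in INT-767 livers, the most abundant being *Alb* at 43057 ± 4297 and 63913 ± 19494 CPM (not called, edgeR adjusted p = 0.0891). Of 13 macrophage markers, *Csf1r*, *Cd68* and *Cd9* fell (log2 fold changes -1.14, -1.16 and -0.76) and *Cd5l*, the most abundant, was at 219 ± 34.8 and 215 ± 127 CPM. Their sum was 711 ± 85.2 CPM against 517 ± 218 CPM. Of 12 stellate cell and myofibroblast markers, *Col1a1*, *Col1a2* and *Pdgfrb* fell (log2 fold changes -2.96, -2.35 and -1.31), *Dcn*, the most abundant, was at 472 ± 73.8 and 549 ± 179 CPM, and the sum was 1295 ± 407 CPM against 849.6 ± 230.1 CPM.

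Of 8 endothelial markers *Vwf* fell (log2 fold change -1.31, beside 4.68% of all tested genes that fell), *Stab2* was the most abundant (56.9 ± 26.8 and 29.04 ± 9.74 CPM), and the sum was 225 ± 61.6 against 164 ± 31.5 CPM. None of 7 cholangiocyte markers was called by edgeR (4 of 7 at an unadjusted p under 0.05, beside 32.9% of all tested genes), with *Spp1* the most abundant (996 ± 459 and 733 ± 420.4 CPM) and a sum of 1088 ± 459.8 against 792 ± 425 CPM. No tested marker of T and NK cells (6 of 10 tested, *Trbc2* most abundant, sums 8.89 ± 2.36 and 7.57 ± 2.82 CPM) was called. The same held for B and plasma cells (6 of 8, *Ighm*, 104 ± 93.4 and 102 ± 48.9 CPM). Neutrophils and their precursors (2 of 8, *S100a9*, 10.03 ± 1.85 and 10.6 ± 11.2 CPM) and erythroid precursors (5 of 8, *Tfrc*, 125 ± 32.4 and 225 ± 91.9 CPM) had no call either. At an unadjusted p under 0.05 in edgeR these 4 lists held 1 of 6, 1 of 6, 0 of 2 and 2 of 5 tested genes, beside 32.9% of all tested genes. The neutrophil sum was 26.9 CPM in INT-767 mouse 4 and 6.35, 7.88 and 1.41 CPM in INT-767 mice 1 to 3. The erythroid sum was 280 and 324 CPM in INT-767 mice 2 and 4, which stood apart. It was 164 and 131 CPM in INT-767 mice 1 and 3 and 81.5 to 173 CPM in vehicle livers. The erythroid markers *Gata1* and *Hemgn* were near absent in both groups, with 1 and 3 counts over all 11 livers, and no marker was at 0 in all of them. All 10 hepatocyte markers were at 266 CPM or more on average in vehicle livers, as the liver label says. The part of these cell types in the fall of the replication genes was not tested.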

How the data were processed

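RNA of 11 livers, 7 vehicle and 4 INT-767, was measured. The authors prepared stranded poly(A) libraries, aligned 75-cycle reads to GRCm38 with STAR (2.4.0 in the submitters' processing notes, while the study's methods name another release) and deposited raw read counts per gene, 46603 rows, with no normalization. Neither the counting program nor its strand setting is stated in the sources used here. Groups were taken from the sample labels.

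Counts were scaled by TMM, kept by filterByExpr (minimum count 10, minimum total 15) and tested with glmQLFit (robust) and glmQLFTest in edgeR 4.0.16 (R 4.3.3), with treatment as the only term and Benjamini-Hochberg adjustment over 13880 genes at 0.05. Intervals are 95% on the log2 scale. RPKM used the longest coding transcript of GENCODE M21. A count of 0 was read as up to 3 counts of the library, which covers counting error only, since PCR copies of a molecule could not be told apart. The fit was tested on simulated data.

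The 39 genes and all lists were chosen with earlier results of these data known. All 39 were named, with values per mouse for the 2 of each step with the smallest p, for those with a fold change above 0 and for those not tested. From other lists up to 6 called genes (3 for cell types, with the most abundant marker) were named, except for 1 marker that is not reported here. Alternatives were RLE, library size and upper-quartile scaling, no filter and a stricter filter, a replicate block, DESeq2 1.42.0, limma 3.58.1 (voom, with and without sample weights), a GC content and length offset, a threshold of 0.01, leaving out each mouse and, added after seeing the data, leaving out the 4 libraries with a score above 0.1 on the main axis of the spread within groups (singular value decomposition of log2 CPM minus the group mean).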

Additional observations from a re-analysis of the deposited data

Results flagged for a closer look

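Within-group spread was examined in 76 groups of member values in CPM (each gene in the vehicle or the INT-767 livers), and 5 had 1 liver far from the rest. Chance flags about 1 in 20 groups. The high ones were *Cdc6* in vehicle mouse 5 at 2.036 CPM (the next liver was at 1.226), *Mcm7* in INT-767 mouse 4 at 25.78 CPM (next 14.51), *Pola2* in INT-767 mouse 3 at 8.448 CPM (next 6.418) and *Ccne1* in vehicle mouse 7 at 5.546 CPM (next 3.424). The low one was *Mcm4* in INT-767 mouse 2 at 5.251 CPM (next 6.195), where the other 3 treated livers were close together. Why these livers differed was not tested.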

How the results depend on the processing

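Of the members, 9 were called lower. The count was 8 with RLE factors, 12 with library size only, 10 with upper-quartile factors, 7 without a filter, 8 with at least 10 counts in every mouse, 11 with DESeq2, 8 with limma-voom, 11 with sample weights, 12 with a GC content and length offset and 3 at a threshold of 0.01. No member was called higher under any of these. Of all tested genes, in the order from RLE factors to the offset, 4.68%, 7.39%, 5.85%, 1.7%, 4.75%, 8.52%, 4.11%, 8.8% and 5.86% fell. Without the 4 libraries that stood apart, chosen after seeing the data, 5 were called lower and 1 higher, beside 879 and 856 of all 14363 tested genes. Leaving out 1 mouse gave 3 (without INT-767 mouse 2) to 12 members, and 110 to 1370 lower and 164 to 1906 higher genes of all tested. The median over the members was -0.65 to -0.50. Library size only moved the median of all genes to -0.22 and that of the members to -0.76.

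Deviations of same-numbered livers from their group means had correlations of -0.69, 0.22, 0.15 and -0.48. These few values, with 58.8% of the spread within groups on 1 axis, cannot settle whether replicate numbers paired the samples. With the replicate block, 0 members and 0 genes of all tested were called in either direction (9 members and 1347 genes at an unadjusted p under 0.05), also 0 with the GC content and length offset added (13 and 1681). That fit has fewer residual degrees of freedom.

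Over all genes, the higher count of 700 became 331 with library size only, 1397 with DESeq2, 1658 with sample weights, 1073 with the GC content and length offset and 158 at 0.01. The lower count of 649 became 1026, 1333, 1221 (library size only, DESeq2, sample weights) and 87 at 0.01. Uncalled genes changed sign: *E2f2* to 0.25 and *Mcm7* to 0.069 with the GC content and length offset (0.076 and 0.094 with the block added), *Tk1* to 0.041 and 0.13 in those fits and 0.071 with the block, *Rfc4* to -0.37 and -0.19 in the first 2 fits, -0.19 with library size only, -0.054 with upper-quartile factors and -0.035 with the stricter filter. *Gins1* went to 0.079 and *Prim1* to 0.072 with sample weights (0.018 with the block), *Pola1* to -0.095, *Rfc2* to -0.025 and *Rfc5* to -0.12 with library size only (*Rfc5* -0.052 with weights), and without the 4 libraries *Gins1* to 0.10, *Prim1* to 0.19 and *Rfc5* to -0.22. Leaving out 1 mouse gave -0.51 to 0.19 for *E2f2*, -0.35 to 0.056 for *Mcm7*, -0.0058 to 0.25 for *Pola1*, -0.11 to 0.19 for *Rfc4* and -0.060 to 0.29 for *Rfc5*. The cause was not tested. Depth limits *Orc1* and *Fen1*, which rest on 66 and 31 counts in all.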
